A study of Mus musculus with 96 samples.

Results

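The 8 genes described here receive, make, move or break down acetylcholine. They are the muscarinic receptor genes Chrm1, Chrm2, Chrm3 and Chrm4, the acetylcholine-synthesising enzyme Chat, the choline transporter Slc5a7, the vesicular acetylcholine transporter Slc18a3 and the acetylcholine-degrading enzyme Ache. They were chosen by name, and all 8 were found among the 48795 genes of the deposited count table. RNA was sequenced from striatum and cerebral cortex of 48 C57BL/6 mice aged 6 months, with 1 library per tissue and animal and 96 libraries in all. Every genotype held 8 animals, 4 female and 4 male. The genotypes were wild type, mice heterozygous for the Q140 knock-in of Htt (labelled Het (Q140) KI and called Q140 here), Pms1+/-, Q140 with Pms1+/-, Pms1-/- and Q140 with Pms1-/-. Htt is the Huntington's disease gene, Q140 carries a long CAG repeat in it, and Pms1 encodes a protein of the MutL mismatch repair family. No source used here describes the lesion of the Pms1 allele, and the series text gives 16 animals per group where the labels give 8.

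Acetylcholine acts on muscarinic receptors, which couple to G proteins, and on nicotinic receptors, which are ion channels. The receptors encoded by Chrm1 and Chrm3 act through Gq and phospholipase C, and those encoded by Chrm2 and Chrm4 act through Gi and lower cyclic AMP. In the striatum the transmitter comes mostly from sparse local interneurons with dense fibres, while the medium spiny neurons, the output cells that fill most of the tissue, carry Chrm1 and Chrm4. In the cortex most cholinergic fibres come from cell bodies in the basal forebrain, outside the dissected tissue.

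Libraries held between 27993751 and 56364535 gene counts, and in every pair of libraries of a group the counts differed by more than sampling noise. Striatal Pms1 averaged 5.43 ± 0.343 CPM, a gene's count relative to the scaled library size (SD, n = 8), in wild type and 4.03 ± 0.445 in Pms1-/- mice, a log2 difference of -0.43 (adjusted p = 0.000698), and cortical Pms1 did not pass the test. These gene-level counts cannot check the allele. Medium spiny neuron markers summed to between 15642 and 17559 CPM in wild-type striatum and to between 717 and 861 in wild-type cortex, as the tissue labels say. In 4 striatal libraries the cortical gene Slc17a7 was above 10 CPM, against at most 5.88 in the others. They were 1 of Q140 Pms1+/-, 2 of Pms1-/- and 1 of Q140 Pms1-/- mice, and results that rest on these groups were also computed without them. The animals carry a code whose first number is not explained: all 16 Pms1-/- animals with and without the knock-in have a first number of 16 or more, against 2 wild-type, 3 Q140, 0 Pms1+/- and 1 Q140 Pms1+/- animals.

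Between genes, levels were compared in FPKM, the deposited read numbers scaled by library size and divided by gene length. In wild-type striatum Chrm4 stood highest, at 60.6 ± 2.60 FPKM (SD, n = 8). Chrm1 followed at 32.7 ± 1.40, Ache at 20.2 ± 0.752, Chat at 13.4 ± 1.01 and Slc5a7 at 12.1 ± 0.822. The ranges of Chat and Slc5a7 overlapped, and those of the neighbours above them did not. Slc18a3 averaged 5.27 ± 0.508 FPKM, Chrm3 ran from 2.29 to 3.22 with an SD of 0.283, and Chrm2 averaged 1.88 ± 0.113. The fifth muscarinic receptor gene, Chrm5, which is no member, was the lowest at 0.358 ± 0.131.

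The order was different in wild-type cortex. There Chrm1 led at 39.5 ± 3.33 FPKM (SD, n = 8), before Chrm4 at 25.1 ± 2.53, Chrm3 at 19.0 ± 1.26, Ache at 12.0 ± 0.700 and Chrm2 at 3.34 ± 0.243, with no overlap between neighbours. Chat at 0.237 ± 0.062, Slc5a7 at 0.205 ± 0.033 and Slc18a3 at 0.149 ± 0.043 overlapped each other, and Slc18a3 overlapped Chrm5. Over all 48 cortical libraries the deposited counts of Chat, Slc5a7 and Slc18a3 ran from 6 to 59 per library, so that differences between genotypes in these genes were hard to resolve at this depth.

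All 8 members differed between wild-type striatum and wild-type cortex by edgeR's quasi-likelihood test over both tissues, where 76% of 19723 genes were called (38.5% higher and 37.5% lower in striatum). The genes of the cholinergic neuron itself differed most: striatum exceeded cortex by 5.84 for Chat (log2, SE 0.0839, adjusted p = 5.5e-79), 5.88 for Slc5a7 (SE 0.0733) and 5.10 for Slc18a3 (SE 0.102). Chrm4 was higher in striatum by 1.28 (SE 0.0605) and Ache by 0.76 (SE 0.0398). The other receptors were lower in striatum, with log2 differences of -0.27 (SE 0.0373) for Chrm1, -0.82 (SE 0.0574) for Chrm2 and -2.81 (SE 0.0591) for Chrm3. Of 12 other genes that mark cholinergic neurons, 11 were called higher in striatum and 1 lower, with Lhx8, a transcription factor of these neurons, higher by 10.49 (SE 0.22). Lhx8 had too few counts to be tested within cortex, so the size of this value rests on a cortical level near the lower limit.

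The members lie on 7 chromosomes of GRCm38. Chrm4 is a single exon in the annotation (GENCODE M21), at chr2:91927249-91928688 on the plus strand, and its 1440 exon bases are also the length that the deposited FPKM implies. Chrm1 (chr19:8663789-8683587), Chrm2 (chr6:36388084-36528414) and Ache (chr5:137287519-137294466) are on the plus strand too. Chrm3 (chr13:9875486-10360847) and Slc5a7 (chr17:54273590-54299034) are on the minus strand. Slc18a3 (chr14:32462438-32464850) lies within Chat (chr14:32408203-32465989) on the same minus strand, their starts are 1139 bases apart, and they share 0 exon bases. Exons of Chrm1, Chrm2 and Ache overlap an annotated gene on the other strand by 329, 142 and 98 bases, and reads of the partners can be told apart only if the counting used strand, which no source used here states. For Chrm3, Chat and Slc5a7 the deposited FPKM implies lengths of 4507, 2810 and 5176 bases, shorter than their 6253, 4703 and 5644 exon bases in this annotation, so the authors' gene models may differ for them.

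RefSeq promoters (GRCm38.p6) were found for 7 of the 8 members. Those of Chrm4, the member with the largest knock-in difference, and of Slc5a7, a gene of the cholinergic neuron with a small one, are shown for the 250 bases before each start, 5′ to 3′ on the gene's strand (Chrm4 at chr2:91921939-91922188, plus strand; Slc5a7 at chr17:54299035-54299284, minus strand). Capitals mark the GC box (GGGCGG), the CCAAT box (CCAAT, read as ATTGG on the other strand) and the TATA box (TATAAA), searched on both strands.
Chrm4: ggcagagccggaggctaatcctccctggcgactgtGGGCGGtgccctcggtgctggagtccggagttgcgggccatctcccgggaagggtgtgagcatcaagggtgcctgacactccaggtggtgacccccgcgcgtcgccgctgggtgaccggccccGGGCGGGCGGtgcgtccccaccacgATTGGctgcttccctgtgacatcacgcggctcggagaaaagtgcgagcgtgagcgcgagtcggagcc
Slc5a7: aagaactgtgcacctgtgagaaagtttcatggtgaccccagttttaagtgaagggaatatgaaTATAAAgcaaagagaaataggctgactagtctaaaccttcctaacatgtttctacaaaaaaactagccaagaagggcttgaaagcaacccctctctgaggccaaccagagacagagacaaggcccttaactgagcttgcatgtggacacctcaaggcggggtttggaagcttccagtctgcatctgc
The Chrm4 window held 3 GC boxes, 2 of which overlap, and 1 CCAAT box at position -67, and the Slc5a7 window held 1 TATA box at -187. GC boxes occur in 32.7% of 32851 RefSeq promoter windows of this length, CCAAT boxes in 33.8% and TATA boxes in 12.4%. The RefSeq start of Chrm4 lies 5060 bases before the annotated gene, so its upstream exon is outside the bases that the FPKM implies were counted. No matches were found for the cAMP response element (TGACGTCA, in 1.55% of windows), the Egr site (GCGGGGGCG, 2.57%) or the E-box (CACGTG, 6.02%) in either window.

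The first question was what the knock-in does to these genes in the striatum. Q140 striatum held less Chrm4, Chrm1 and Chrm3 RNA than wild-type striatum, by 29.0%, 16.0% and 18.7%, and slightly more Ache RNA, by 8.65%. The genes of the cholinergic neuron, Chat, Slc5a7 and Slc18a3, and the receptor gene Chrm2 differed by between -3.54% and -6.85%. By edgeR's quasi-likelihood test, 5 of the 8 members passed an adjusted p of 0.05, 4 lower and 1 higher, and 1 of the lower ones, Slc5a7, passed in few of the alternatives. Over all 18890 genes tested 31.3% passed, 15.4% lower and 15.9% higher, and the median log2 fold change was -0.10 for the members against 0.01 for all genes. Of all called genes 50.8% were higher, and with scaling by library totals alone 79.8% were, which moved the median of all genes to 0.09. The plot of striatal levels shows the members in all libraries.

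**Figure D1:**
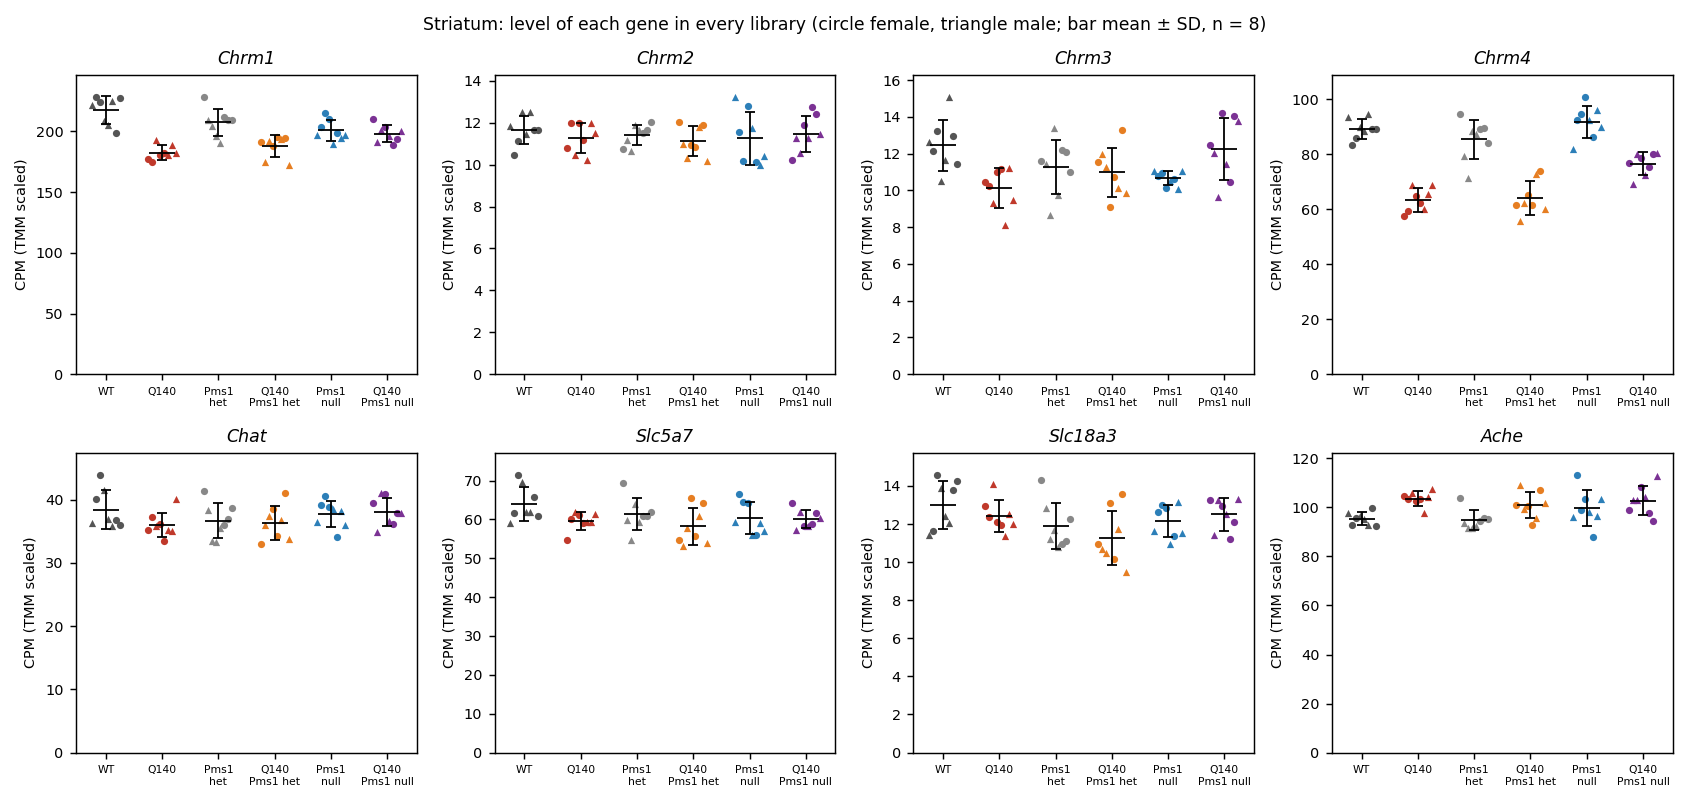
Striatal level of each of the 8 genes in CPM (y axis) by genotype (x axis; WT is wild type, het is Pms1+/- and null is Pms1-/-), 1 point per animal, circles for females and triangles for males, with the mean and SD of each genotype (n = 8). Chrm4 in Q140 animals lay between 57.4 and 69.0 CPM, below the wild-type range of 83.5 to 94.6, and Q140 Pms1-/- animals lay between both ranges at 69.2 to 80.4.

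Chrm4 encodes the Gi-coupled receptor of striatal output neurons and some interneurons. Its lowest, median and highest levels were 83.5, 89.2 and 94.6 CPM in wild-type striatum and 57.4, 63.6 and 69.0 in Q140 striatum (n = 8 each). No Q140 library reached the lowest wild-type library. The gene fell by 0.49 on the log2 scale (SE 0.0492, adjusted p = 2.81e-11), and it was -0.51 in females and -0.47 in males tested alone. In bulk tissue, fewer cells that hold a gene and less of its RNA per cell cannot be told apart.

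Chrm1, the main Gq-coupled muscarinic receptor gene of forebrain neurons, ran from 198 through a median of 223 to 228 CPM in wild type and from 175 through 181 to 193 in Q140 striatum. These groups did not overlap either, although the step was smaller relative to the level (log2 fold change -0.25, SE 0.0305, adjusted p = 2.98e-09). With library totals alone it was -0.18 (adjusted p = 2.26e-07).

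Chrm3, the other Gq-coupled receptor gene among the members, had lowest, median and highest levels of 10.5, 12.4 and 15.1 CPM in wild-type and 8.11, 10.4 and 11.2 in Q140 striatum. The groups overlapped, and 5 of 8 Q140 libraries were below all wild-type ones. It fell by 0.30 on the log2 scale (SE 0.077, adjusted p = 0.00202). In females alone the difference was -0.21 and did not pass (adjusted p = 0.0879), and in males alone it was -0.38 (adjusted p = 0.0424).

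Chrm2, the other Gi-coupled receptor gene, ran from 10.5 through 11.7 to 12.5 CPM in wild type and from 10.2 through 11.3 to 12.0 in Q140 striatum. The ranges were nearly the same, and the log2 fold change of -0.05 (SE 0.0523) had a 95% interval from -0.15 to 0.05 (adjusted p = 0.491). Library totals alone turned its sign, to 0.02, and that of Slc18a3, to 0.01.

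Ache encodes the enzyme that ends the transmitter's action in the synaptic cleft, and cholinergic as well as other neurons make it. Its lowest, median and highest levels were 92.4, 95.5 and 99.6 CPM in wild type and 97.5, 104 and 107 in Q140 striatum. In 7 of 8 Q140 libraries the level was above all wild-type libraries. The fold change on the log2 scale, 0.12 (SE 0.035, adjusted p = 0.00626), was 0.19 with library totals alone (adjusted p = 8.29e-06). In females alone it did not pass (0.12, adjusted p = 0.124).

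Slc5a7 brings choline back into the cholinergic terminal, the limiting step of resynthesis. It ran from 59.2 through 61.8 to 71.4 CPM in wild type and from 54.7 through 59.7 to 61.8 in Q140 striatum, where 2 of 8 libraries were below all wild-type ones. The log2 fold change of -0.10 (SE 0.0409) lay at the threshold itself (adjusted p = 0.04996). The call was lost in 11 of 13 alternatives, and kept with DESeq2 and with DESeq2's size factors in edgeR. It was lost with library totals alone (-0.03, adjusted p = 0.576), without a filter on low counts (adjusted p = 0.0668), without the 1 female Q140 library that was lowest (-0.08, adjusted p = 0.153) and without the 4 libraries with more Slc17a7 (adjusted p = 0.0552).

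Chat and Slc18a3, which make acetylcholine and load it into vesicles, did not pass the test. Chat ran from 35.8 through 36.8 to 43.9 CPM in wild type and from 33.5 through 35.5 to 40.0 in Q140 mice, with 5 of 8 Q140 libraries below all wild-type ones. Its log2 fold change was -0.09 (95% interval -0.18 to -0.00, adjusted p = 0.118). Slc18a3 ran from 11.4 through 13.1 to 14.6 CPM and from 11.4 through 12.2 to 14.1, and its log2 fold change of -0.07 had an interval from -0.18 to 0.05 (adjusted p = 0.449).

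Among the 5 Q140 and 6 wild-type animals with a first code number below 16, the log2 fold changes were -0.51 for Chrm4 (adjusted p = 5.93e-06), -0.29 for Chrm1 (adjusted p = 7.76e-07), -0.30 for Chrm3 (adjusted p = 0.0297) and 0.12 for Ache (adjusted p = 0.0105). Slc5a7 did not pass there (-0.14, adjusted p = 0.0827), while Chat did (-0.17, adjusted p = 0.0282). Most of these Q140 animals were female and most of these wild-type animals male, so this fit leans on sex as a covariate.

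Markers of other cells moved with the same contrast, where 15.4% of all genes were called lower and 15.9% higher. Of 15 medium spiny neuron markers 13 were called lower in Q140 striatum and 1 higher, with a median log2 fold change of -0.54, and their summed level was between 10138 and 11487 CPM, against 15642 to 17559 in wild type. Of the 12 genes that mark cholinergic neurons 1 was called higher and 1 lower, and their sum ran from 205.1 to 229.8 CPM in wild type and from 203.8 to 226.7 in Q140 mice. Slc17a7, the defining vesicular glutamate transporter of cortical neurons, averaged 3.95 ± 1.04 CPM in wild-type and 3.74 ± 0.880 in Q140 striatum. Of 11 basal forebrain, pallidal and septal markers 4 were called higher and 2 lower, also with library totals alone. Their sum ran from 154.5 to 172.7 CPM in wild type and from 166.9 to 182.5 in Q140 striatum. Microglial markers were called lower for 5 of 7 and endothelial and mural markers for 4 of 7, and with library totals alone 2 of 7 were called lower in each list. The part of these shifts in the members' results was not tested.

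With 1 copy of Pms1 the knock-in difference of Chrm4 was called again. The gene ran from 71.5 through 88.0 to 94.5 CPM in Pms1+/- striatum and from 55.9 through 62.0 to 74.1 in Q140 Pms1+/- striatum, where 6 of 8 libraries were below all Pms1+/- ones (log2 fold change -0.41, SE 0.0496, adjusted p = 8.47e-09). Chrm1 was lower in this pair of groups as well (-0.14, SE 0.0306, adjusted p = 0.000293), and its groups overlapped at 191 to 228 CPM against 173 to 195. These were 2 of 8 members, where 24.9% of all genes were called. Of those 51.5% were higher, and 76.9% with library totals alone. Chrm3 showed a difference of -0.03 with an interval from -0.19 to 0.12, and Ache of 0.09 (adjusted p = 0.0523), which passed with library totals alone (0.14, adjusted p = 0.000989) and without the 4 libraries with more Slc17a7 (0.11, adjusted p = 0.0197).

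Without Pms1 the knock-in difference remained called for Chrm4 alone among the members, where 11.1% of all genes were called, 50.5% of them higher and 69.9% with library totals alone. Chrm4 ran from 82.0 through 92.5 to 101 CPM in Pms1-/- striatum and from 69.2 through 77.7 to 80.4 in Q140 Pms1-/- striatum. No library of the latter reached the former, with a log2 fold change of -0.26 (SE 0.0492, adjusted p = 0.000197). In males alone it was -0.25 and did not pass (adjusted p = 0.0706). Chrm1 differed by -0.02, with an interval from -0.08 to 0.04, and Chrm3 by 0.20 (SE 0.078, adjusted p = 0.0925), which passed with library totals alone (adjusted p = 0.0414).

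**Figure D2:**
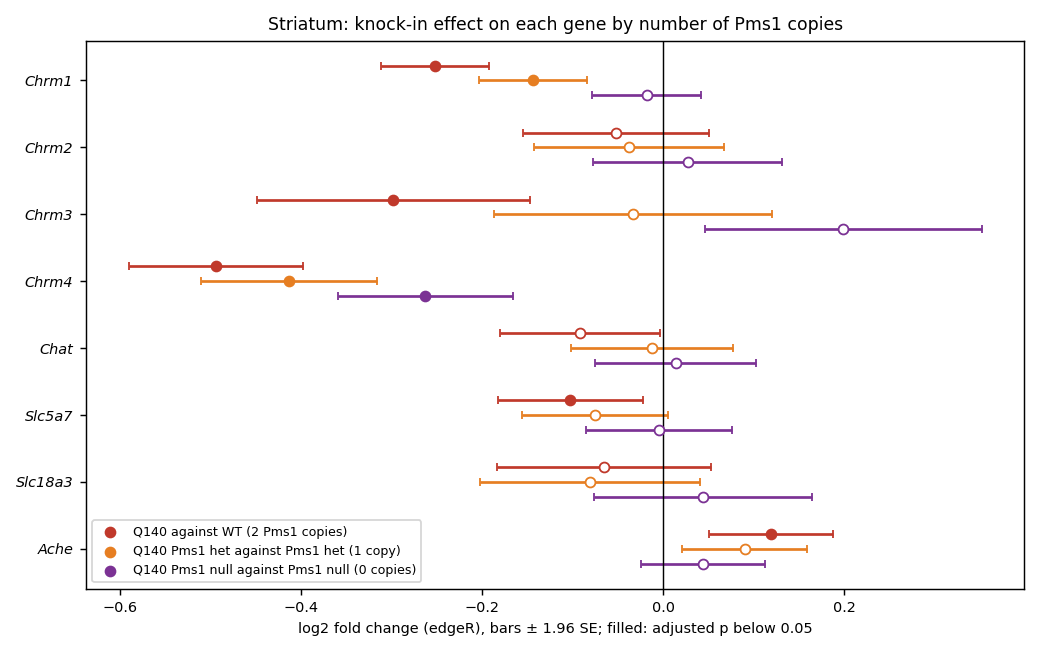
Log2 fold change of each gene in striatum for the knock-in against its own control with 2, 1 or 0 copies of Pms1 (x axis, log2 fold change; bars are 95% intervals; filled points have an adjusted p below 0.05). Chrm4 stood at -0.49, -0.41 and -0.26, Chrm1 at -0.25, -0.14 and -0.02, and Chat, Slc18a3 and Chrm2 were open in all 3 comparisons.

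Whether the knock-in difference itself depends on Pms1 was tested as a difference of differences, Pms1-/- background minus wild-type background. Of all genes 5.05% passed, 3.37% higher and 1.68% lower, so that 66.8% of the called genes were higher, against 26.8% with library totals alone. Of the members 3 passed, all receptors, with a knock-in difference that was less negative, or for Chrm3 positive, without Pms1. Chrm3 differed by 0.50 (log2, SE 0.11, adjusted p = 0.00326), Chrm1 by 0.23 (SE 0.0432, adjusted p = 0.000438) and Chrm4 by 0.23 (SE 0.0695, adjusted p = 0.0395). The controls enter this test too. Chrm1 averaged 217 CPM in wild-type, 201 in Pms1-/-, 182 in Q140 and 198 in Q140 Pms1-/- striatum. In the same order Chrm3 averaged 12.5, 10.7, 10.1 and 12.3 CPM, and Chrm4 89.3, 91.9, 63.5 and 76.6. Loss of Pms1 and the code range of the Pms1-/- animals cannot be told apart here. The Chrm4 call was lost in 7 of 10 alternatives, among them library totals alone (0.18, adjusted p = 0.0754), no filter on low counts (adjusted p = 0.0703) and the fit without the 4 libraries with more Slc17a7 (0.20, adjusted p = 0.105). In males alone none of the 3 passed, with differences of 0.23, 0.51 and 0.22 for Chrm1, Chrm3 and Chrm4. Chat differed by 0.11, Slc5a7 by 0.10, Slc18a3 by 0.11 and Ache by -0.08, none of which passed.

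Set directly against Q140 mice, Q140 mice without Pms1 had more RNA of the same 3 receptor genes in the striatum, and the other 5 members did not pass. This is 3 of 8 members, all higher, where 7.1% of all genes were called, 5.07% higher and 2.03% lower. Of all called genes 71.4% were higher, and 29.0% with library totals alone. Both comparisons with Q140 share the Q140 libraries.

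Chrm4 rose from 57.4, 63.6 and 69.0 CPM (lowest, median and highest) in Q140 to 69.2, 77.7 and 80.4 in Q140 Pms1-/- striatum, with all 8 libraries above the highest Q140 one. This is 20.6% more, a log2 fold change of 0.27 (SE 0.0495, adjusted p = 0.000169), and leaves Chrm4 below all wild-type libraries. Chrm1 rose from 175, 181 and 193 to 188.8, 198 and 209.7 CPM, with 6 of 8 libraries above all Q140 ones (0.12, SE 0.0306, adjusted p = 0.00908). Chrm3 rose from 8.11, 10.4 and 11.2 to 9.67, 12.3 and 14.2 CPM, also with 6 of 8 libraries above (0.27, SE 0.0776, adjusted p = 0.0212), and lost the call in 4 of 11 alternatives, among them the fit without the 4 libraries with more Slc17a7 (0.25, adjusted p = 0.0596), of which the 1 in this comparison had 14.1 CPM of Chrm3.

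Of the members that did not pass, Chat had a log2 difference of 0.08 with an interval from -0.01 to 0.17, and Chrm2, Slc5a7, Slc18a3 and Ache of 0.02, 0.01, 0.01 and -0.01. With only the animals whose first code number was 16 or more, which leaves 3 male Q140 mice, the differences were 0.21 for Chrm4 (adjusted p = 0.0692), 0.08 for Chrm1 (adjusted p = 0.461) and 0.32 for Chrm3 (adjusted p = 0.196), none of which passed. In males alone none passed either, at 0.20, 0.08 and 0.29, and in females alone Chrm4 (0.35, adjusted p = 0.000123) and Chrm1 (0.16, adjusted p = 0.0322) did. All female Q140 mice had a first code number below 16, and all female Q140 Pms1-/- mice 16 or more. In females, genotype and code range therefore cannot be told apart. Medium spiny neuron markers were called higher for 12 of 15 genes, where 5.07% of all genes were. Their summed level ran from 11910 to 14090 CPM against 10138 to 11487 in Q140 mice, and their part in the members' differences was not tested.

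Loss of 1 Pms1 copy gave no call in the striatum. No gene passed edgeR's test for Q140 Pms1+/- against Q140 (0% called; 1026 genes had an unadjusted p under 0.05, and DESeq2 called 1) or for Pms1+/- against wild type (0%; 1882 unadjusted, 17 by DESeq2). The members' log2 differences ran from -0.14 (Slc18a3) to 0.12 (Chrm3) in the first comparison and from -0.15 (Chrm3) to -0.01 (Ache) in the second.

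Loss of both copies without the knock-in gave 1 call among the members, where 7.91% of all genes were called, 50.7% of them higher and 64.4% with library totals alone. Chrm1 ran from 189.9 through 198 to 215 CPM in Pms1-/- striatum against 198 through 223 to 228 in wild type, with 4 of 8 libraries below all wild-type ones (log2 fold change -0.12, SE 0.0305, adjusted p = 0.0141). It passed neither in females (-0.08, adjusted p = 0.265) nor in males alone (-0.14, adjusted p = 0.183). Chrm3 had a difference of -0.23 (SE 0.0774, adjusted p = 0.059; 0.0411 by DESeq2), and Chrm4 of 0.04 with an interval from -0.06 to 0.13. Only 2 wild-type animals share the code range of the Pms1-/- animals, too few for a comparison within it.

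No member differed between the sexes in striatum, where 6.16% of genes were called, or in cortex, where 5.36% were. Nearest to the threshold were Chrm2 in cortex (male minus female 0.08, adjusted p = 0.153) and Chrm1 in striatum (-0.04, adjusted p = 0.162).

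**Figure D3:**
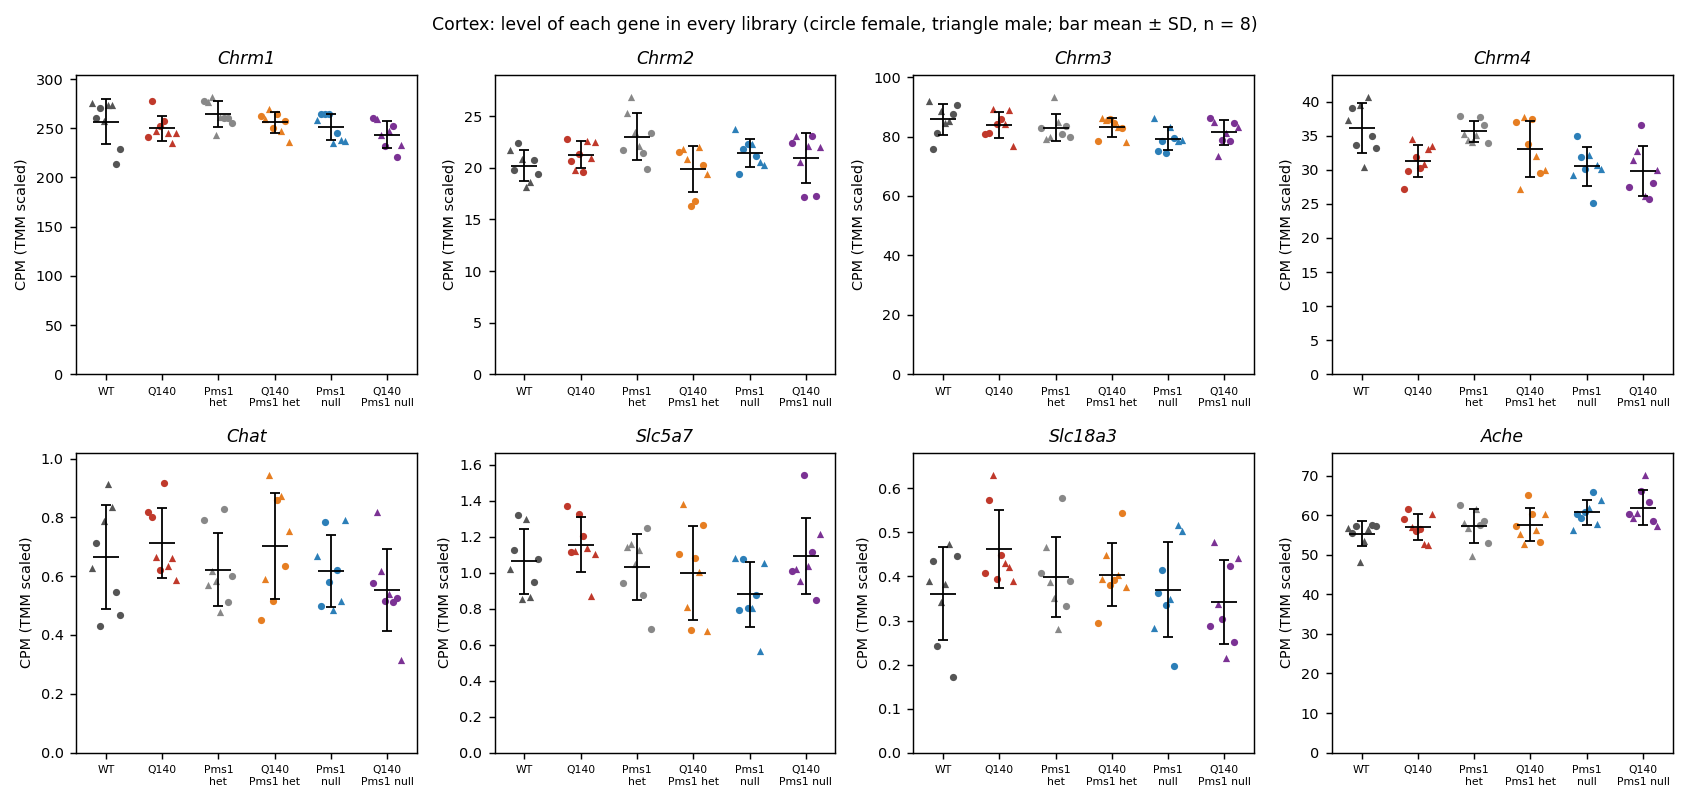
Cortical level of each of the 8 genes in CPM (y axis) by genotype (x axis), 1 point per animal, circles for females and triangles for males, with the mean and SD of each genotype (n = 8). The genotypes overlapped for every gene, and Chat, Slc5a7 and Slc18a3 were at most 1.54 CPM in all libraries.

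In the cortex the knock-in gave no call among the members, where 0.0428% of all 18711 genes were called. Chrm4 ran from 27.2 through 31.3 to 34.5 CPM in Q140 cortex and from 30.4 through 36.2 to 40.7 in wild type, with 3 of 8 Q140 libraries below all wild-type ones (log2 fold change -0.21, SE 0.0689, adjusted p = 0.405). Over the 24 knock-in against the 24 other animals it differed by -0.12 (SE 0.0397, adjusted p = 0.118; 1.73% of genes called, no member). Of the cortical differences that did not pass, that of Chrm2 was nearest to the threshold, at -0.21 (SE 0.0597, adjusted p = 0.0888) for Q140 Pms1+/- against Pms1+/-, where 0.112% of genes were called. DESeq2 called it (adjusted p = 0.0445), and its levels overlapped at 16.3 to 22.0 against 19.9 to 26.9 CPM. In the other cortical comparisons no member passed: 0.0107% of genes were called for Q140 Pms1-/- against Q140 and 0.0428% against Pms1-/-, and 0% where 1 copy of Pms1 was lost or the knock-in difference was compared between backgrounds.

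Loss of both Pms1 copies without the knock-in was the cortical comparison with calls among the members: 3 of 8, 1 higher and 2 lower, where 9.58% of all genes were called, 5.31% higher and 4.26% lower. Chrm4 was lower, at 25.1, 30.4 and 35.0 CPM (lowest, median and highest) against 30.4, 36.2 and 40.7 in wild type (log2 fold change -0.24, SE 0.0687, adjusted p = 0.0212). Chrm3, far more abundant here than in striatum, was lower by 7.53%, at 74.5, 78.8 and 86.3 against 76.0, 86.5 and 91.8 CPM (-0.11, SE 0.0356, adjusted p = 0.0351). Ache was higher by 9.87%, at 56.2, 60.6 and 65.9 against 48.3, 56.7 and 57.4 CPM (0.14, SE 0.0429, adjusted p = 0.0358), with 7 of 8 libraries above all wild-type ones. The groups overlapped for all 3. Without 1 male wild-type library that was lowest for Ache, Chrm3 (adjusted p = 0.0632) and Ache (0.11, adjusted p = 0.0953) did not pass and Chrm4 did (-0.22, adjusted p = 0.0474). None passed in 1 sex alone. Of 10 alternatives, 6 lost the call of Chrm3, 4 that of Ache and 2 that of Chrm4. As in striatum, the code range of the Pms1-/- animals holds only 2 wild-type animals.

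The Q140 difference itself differed between tissues for the 3 receptor genes that were lower in striatum, where 13.3% of all genes were called, 37.3% of them higher and 79.8% with library totals alone. The striatal minus the cortical difference was -0.23 for Chrm1 (log2, SE 0.0528, adjusted p = 0.000842), -0.28 for Chrm3 (SE 0.0827, adjusted p = 0.0126) and -0.30 for Chrm4 (SE 0.0855, adjusted p = 0.00869). With library totals alone Chrm1 passed (-0.14, adjusted p = 0.0204) and Chrm3 (adjusted p = 0.0781) and Chrm4 (adjusted p = 0.0571) did not. None of the 3 passed in males alone, and Chrm3 and Chrm4 each lost the call in 4 of 8 alternatives. With the animal as a block, which pairs both tissues of each mouse, the same 3 members were called.

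Other genes of acetylcholine signalling were taken from lists chosen by function. Of 16 nicotinic receptor subunit genes 7 were abundant enough to be tested in striatum, and in Q140 against wild type 2 were called higher and 2 lower (15.9% and 15.4% of all genes tested were). Chrna4, the main partner of Chrnb2 in brain nicotinic receptors, was lower by 0.86 on the log2 scale (-0.86, SE 0.066, adjusted p = 2.1e-15), and Chrna7 by 0.35 (-0.35, SE 0.074, adjusted p = 0.000175), while Chrnb2 was higher by 0.09 (SE 0.025, adjusted p = 0.00515). The other called gene, Chrna5, averaged under 1 CPM. The median over the 7 genes was 0.09.

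Of 18 further genes of the cholinergic system, all tested, 4 were called higher and 3 lower, and 9 and 2 with library totals alone, with a median of 0.03. In this comparison 31.3% of all genes were called, so the genes that follow are given for their own values. Prima1, which anchors acetylcholinesterase at the membrane, was lower (-0.49, SE 0.062, adjusted p = 1.04e-08), in contrast to Ache itself. Lynx1, a membrane-bound modulator of nicotinic receptors, was lower too (-0.55, SE 0.06, adjusted p = 4.24e-10), and its relative Ly6h was higher (0.27, SE 0.044, adjusted p = 3.14e-06). Acly, which supplies acetyl-CoA, was lower by 0.11 (-0.11, adjusted p = 0.00323), and the choline kinase gene Chkb was higher by 0.20 (adjusted p = 0.000344).

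Of 29 genes that act downstream of muscarinic receptors, 27 were in the table by name and all of these were tested. Of them 16 were called lower and 1 higher, where 15.4% and 15.9% of all genes were, with a median of -0.14. With library totals alone these were 12 and 5, with a median of -0.06. Among them Rgs4, which shortens Gi and Gq signals, had a log2 fold change of -0.71 (SE 0.059), the cyclase gene Adcy5 of -0.59 (SE 0.035) and Rgs9 of -0.53 (SE 0.043). Kcnj3, a channel subunit opened by Gi-coupled receptors, was the one that was higher (0.35, SE 0.055). Adcy5 and Rgs9 also stand in the list of medium spiny neuron markers.

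In Q140 Pms1-/- against Q140 striatum 11 of the 27 signalling genes were called higher and 0 lower (10 and 2 with library totals alone). Of all genes 5.07% were called higher and 2.03% lower. Among the 11 were Rgs4 (0.37), Adcy5 (0.31) and Rgs9 (0.28). Chrna4 was the 1 nicotinic gene called, at 0.49 (SE 0.067, adjusted p = 8.53e-07). Prima1 (0.38, adjusted p = 3.44e-05) and Lynx1 (0.37, adjusted p = 3.12e-05) were higher, and Ly6h (-0.14, adjusted p = 0.0364) and Tmem35a (-0.12, adjusted p = 0.0211), a chaperone gene of nicotinic receptors, were lower. Among the cholinergic neuron markers Isl1, which is also made by output neurons of the direct pathway, was higher in Q140 against wild type (0.31, SE 0.044, adjusted p = 1.24e-07) and lower in Q140 Pms1-/- against Q140 (-0.16, SE 0.044, adjusted p = 0.0126).

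**Figure D4:**
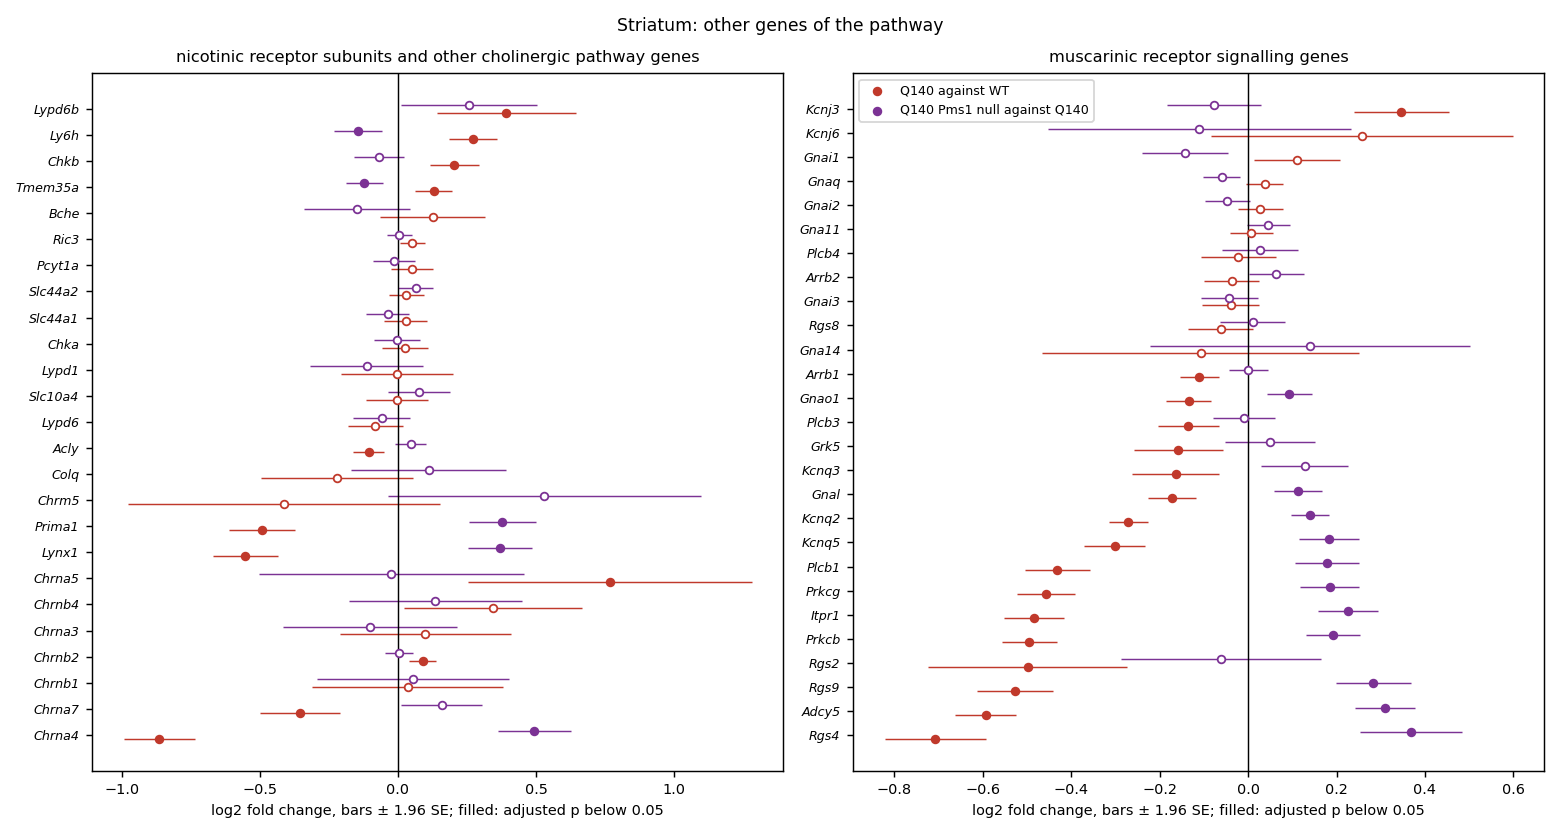
Log2 fold change in striatum (x axis) of nicotinic and other cholinergic genes (left) and of genes downstream of muscarinic receptors (right), for Q140 against wild type and Q140 Pms1-/- against Q140, with 95% intervals as bars and filled points for an adjusted p below 0.05 (WT is wild type, null is Pms1-/-). Chrna4 stood at -0.86 and 0.49 and Prima1 at -0.49 and 0.38, in comparisons that share the Q140 libraries.

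After the means of genotype and sex were removed, the members' log2 levels were compared over the 48 libraries of a tissue, as a description of libraries that share scaling and depth. In striatum the genes of the cholinergic neuron varied together, with Pearson's r of 0.68 for Chat and Slc5a7, 0.68 for Slc5a7 and Slc18a3 and 0.62 for Chat and Slc18a3. In cortex, where these genes had few counts, the same pairs gave -0.01, 0.00 and 0.26. The receptor genes were less alike, at 0.29 for Chrm1 and Chrm4 and 0.18 for Chrm1 and Chrm3 in striatum, and Chrm4 and Slc5a7 gave 0.57.

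**Figure D5:**
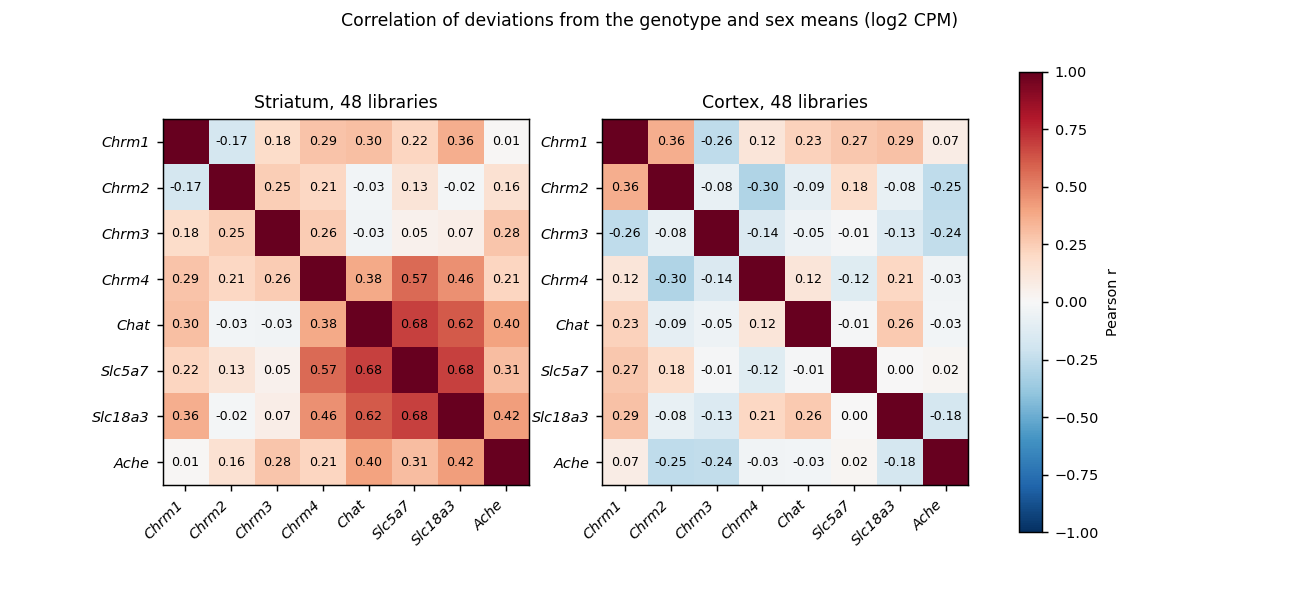
Pearson's r between the 8 genes over 48 striatal (left) and 48 cortical (right) libraries, on log2 CPM after the means of genotype and sex were removed (colour scale from -1 to 1). Chat, Slc5a7 and Slc18a3 gave 0.62 to 0.68 in striatum and -0.01 to 0.26 in cortex.

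The genes most like each member were found in the same way among genes that averaged 1 CPM or more. In striatum Chrm4 was most like Plxnd1, Scn4b and Vwa7 (r = 0.82 each), of which Scn4b marks medium spiny neurons. Chrm1 was most like Mark2 and Ngef (0.75 each), Chrm3 like Ryr2 (0.70), Chrm2 like Pnkd (0.61) and Ache like Dus3l (0.69). Slc5a7 was most like Acly (0.81) and Ecel1 (0.73), while Chat and Slc18a3 were both most like Slc5a7 (0.68 each).

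In cortex Chrm4 was most like Sik1 (0.88), Arc (0.85) and Trib1 (0.85), of which Arc is a gene induced by neuronal activity. Arc averaged 651 ± 178 CPM in wild-type, 345 ± 105 in Q140 and 499 ± 127 in Pms1-/- cortex (SD, n = 8), and did not pass for Q140 against wild type (-0.92, adjusted p = 0.247). The part of this variation in the cortical Chrm4 levels was not tested. Chrm1 was most like Baiap2 (0.85), Chrm2 like Gpr22 (0.72), Chrm3 like Slitrk1 (0.75) and Ache like Rusc1 (0.77).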

How the data were processed

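The 96 libraries, 48 of striatum and 48 of cortex, were made with a stranded TruSeq kit, per the labels' protocols. The submitters' processing notes name STAR 2.7.5c, SAMtools 1.10, HTSeq 0.12.3 and the builds GRCm38 and mm10, with no role or order. The deposited read counts per gene are whole numbers, and the deposited FPKM values were computed by the authors from the same genes. No source used here states the annotation release or the strand setting of the counting.

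Samples were grouped by tissue and genotype from the labels. In each tissue, counts were scaled by TMM, genes with low counts were removed (filterByExpr by genotype), and genotype means with sex as a covariate were fitted over all 48 libraries with edgeR 4.0.16 (robust quasi-likelihood test, R 4.3.3). P-values were adjusted by Benjamini and Hochberg over all genes tested, 18890 in striatum and 18711 in cortex, with a threshold of 0.05, and 21 comparisons were made. Comparisons between tissues were fitted over all 96 libraries. CPM are TMM-scaled. Intervals are 95% normal intervals from the standard errors. The fit was tested on simulated data of 18890 genes for Q140 against wild type in striatum. Of 100 genes changed 1.2-fold 55 were recovered and of 100 changed 1.5-fold 80, with 7 false calls among the unchanged genes. All other genes were left unchanged, whereas 31.3% were called in the real comparison, so these shares need not apply to it.

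The alternatives were DESeq2's size factors (RLE), library totals alone, no filter, DESeq2 1.42.0, limma 3.58.1 on log2(FPKM + 0.1) and on log2(FPKM + 1), limma voom with the first number of the animal code as a random block, each sex alone, code ranges parted at 16, and the animal as a block between tissues. After the data were seen, fits without 3 single libraries and without the striatal libraries with Slc17a7 above 10 CPM were added. Both tissues of a mouse carry the same code, so that the labels pair them: deviations from the group means correlated at a median of 0.161 over 48 pairs (lowest 0.0605, 43 above 0.1), and for 44 animals the own pair was the best.

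The members and the gene lists were chosen with earlier results of these data known. All 8 members are named in every comparison. Of each other list, up to 3 called genes with the largest increase and 3 with the largest decrease and a mean of at least 1 CPM could be named, and Chrm5 always. The 3 genes most like a member are those with the highest Pearson's r over 48 libraries, with predicted genes left out. Depth ran from 27993751 to 56364535 counts per library. Intervals are for differences of group means, with standard errors that take in the spread between animals.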

Additional observations from a re-analysis of the deposited data

Results flagged for a closer look

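Of 96 groups of 8 libraries (8 genes, 6 genotypes, 2 tissues) 5 held a library that stood apart from the other 7 by Dixon's test, about the number that chance gives at 1 in 20. In striatum, Slc5a7 in the lowest Q140 library (female) was 54.7 CPM, with the next at 59.2, and Ache in the lowest Q140 library (male) was 97.5 CPM, with the next at 102.8. Ache reached 104.0 CPM in 1 Pms1+/- striatal library, with the next at 95.6. In cortex, Ache in the lowest wild-type library (male) was 48.3 CPM, with the next at 53.4, and Chrm3 in the highest Pms1+/- library (male) was 93.4 CPM, with the next at 84.9.

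The knock-in difference in striatum differed between the Pms1-/- and wild-type backgrounds for Chrm1 (log2 0.23), Chrm3 (0.50) and Chrm4 (0.23), by the interaction test. For Chrm3 the 2 differences had opposite signs, -0.30 with and 0.20 without Pms1, and the latter did not pass (adjusted p = 0.0925, edgeR).

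The Q140 difference differed between striatum and cortex for Chrm1 (-0.23), Chrm3 (-0.28) and Chrm4 (-0.30), by the interaction test over both tissues.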

How the results depend on the processing

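No called difference of a member changed sign under any alternative that was run. Over the members' single results, 54 alternatives lost a call and 12 gained one, and 46 moved a value that was not called on either side by more than its standard error with a change of sign. Numbers of members called that moved by more than 1.5 times, or from or to 0, are these. In striatum they went from 5 to 2 for Q140 against wild type (females alone), from 1 to 2 (DESeq2) or 0 (either sex alone) for Pms1-/- against wild type, from 3 to 0 for Q140 Pms1-/- against Q140 (males alone; codes of 16 or more) and from 1 to 2 (library totals) or 0 (males) for Q140 Pms1-/- against Pms1-/-. They went from 3 to 0 in males for both interaction tests, from 3 to 0 in either sex and to 1 without wild-type replicate 4 for cortical Pms1-/- against wild type, and from 0 to 1 with DESeq2 for cortical Q140 Pms1+/- against Pms1+/-. Smaller moves include 5 to 4 for Q140 against wild type and 3 to 2 for the striatal interaction with library totals. Slc5a7 lost its striatal Q140 call in 11 of 13 alternatives, the Chrm4 interaction call was lost in 7 of 10, cortical Chrm3 in 6 of 10, and Ache gained a call for Q140 Pms1+/- against Pms1+/- in 5 of 10. With the animal as replicate block, 15384 genes were called between wild-type tissues (14996 without) and 3579 for the tissue difference of the Q140 effect (2617 without), with 8 and 3 members as before.

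Genes called over the whole table in striatum moved by more than 1.5 times as follows: for Q140 against wild type from 5909 to 2814 in males; for Pms1+/- against wild type from 0 to 17 (DESeq2) and 1 (either FPKM fit; males); for Pms1-/- against wild type from 1494 to 984 (no filter), 935 (random block) and 0 (males); for Q140 Pms1+/- against Q140 from 0 to 1 (no filter; DESeq2; FPKM + 1). For Q140 Pms1-/- against Q140 they went from 1342 to 2148 (library totals), 2164 and 2193 (FPKM + 0.1 and + 1), 600 (females), 186 (males) and 142 (codes of 16 or more). For Q140 Pms1+/- against Pms1+/- they went from 4698 to 2166 and 2484 (females, males), for Q140 Pms1-/- against Pms1-/- from 2090 to 1012 and 429, for the interaction from 954 to 12 in males, and for sex from 1164 to 464 (random block).

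In cortex they went for Q140 against wild type from 8 to 14 (DESeq2) and 1 (males); for Pms1+/- against wild type from 0 to 36 and 1; for Pms1-/- against wild type from 1792 to 1174 (no filter), 1096 (random block), 1009 (females) and 2 (males); for Q140 Pms1-/- against Q140 from 2 to 167 (DESeq2) and 0 (FPKM + 0.1; either sex; codes of 16 or more). For Q140 Pms1+/- against Pms1+/- they went from 21 to 34 (library totals), 217 (DESeq2), 41 and 42 (FPKM), 2 (females) and 310 (males); for Q140 Pms1-/- against Pms1-/- from 8 to 17 (DESeq2), 19 (females), 1 (males) and 3 (codes of 16 or more); for the interaction from 0 to 12 (females); for sex from 1002 to 458 (random block); for the pooled knock-in from 324 to 187 (no filter), 10 (females) and 9 (males). The tissue difference went from 2617 to 4237 (library totals), 4285 (FPKM + 0.1), 1612 (females) and 860 (males). Fits in 1 sex use fewer samples, as many for females as for males. The cause of the moves was not tested. Depth limited Chat, Slc5a7 and Slc18a3 in cortex to 6 to 59 counts per library.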

Other observations

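Chrm5, the Gq-coupled receptor gene that is best known from dopamine neurons, was near the lower limit of the libraries. In striatum it ran from 14 to 47 counts per library in wild type and from 6 to 31 in Q140 mice, and its log2 difference of -0.41 (SE 0.288) did not pass (adjusted p = 0.296, edgeR). For Q140 Pms1-/- against Q140 it was 0.53 (SE 0.289, adjusted p = 0.318), and in cortex the gene had too few counts to be tested.

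Without the knock-in, 5 of 27 genes downstream of the muscarinic receptors were called lower and 1 higher in striatum after loss of both Pms1 copies, where 7.91% of all genes were called. Rgs2, a regulator of Gq signals, had a log2 fold change of -0.36 (adjusted p = 0.0426), the receptor kinase gene Grk5 of -0.18 (adjusted p = 0.0228) and Gnai1, a Gi subunit gene, of -0.17 (adjusted p = 0.0303), and the arrestin gene Arrb2 of 0.12 (adjusted p = 0.0135). In cortex 2 of 26 tested genes of this list were called lower and 0 higher, and 1 of 16 tested further cholinergic genes was called higher, where 9.58% of all genes were called, so that both shares were below that of all genes. These were Grk5 (-0.19, adjusted p = 0.0377), Rgs4 (-0.17, adjusted p = 0.000422) and the choline kinase gene Chka (0.15, adjusted p = 0.0199). As for the members, the code range of the Pms1-/- animals holds only 2 wild-type animals. Males alone gave 0 called genes over the whole table in striatum and 2 in cortex.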
